A study of Mus musculus with 6 samples.

Results

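The genes described here carry out the glutathione, antioxidant and aldehyde detoxification reactions of the cell. They were taken from a list of 46 gene symbols, and a probe belonged to a gene if its RefSeq transcript did. All 46 genes had a probe (60 probes in all), of 20655 genes with a probe on the array. The test kept 45 of them, of 14474 genes and unnamed targets tested. Gsta4, a glutathione transferase that acts on lipid aldehydes, was the member left out, because 2 arrays alone showed its probe well above background.

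Gene expression was measured with 1-colour Agilent arrays in spleens of male ICR mice, an outbred strain, aged 8 weeks at the start. Every mouse of both groups was injected with cyclophosphamide, an alkylating drug to which dividing cells are sensitive, for 5 days at 40 mg/kg. The MOD group (3 arrays, numbered 1, 2 and 3) received the drug and then water, and the SA-H group (3 arrays, numbered 4, 5 and 6) received the drug and then schisandrol A (SA), a lignan of Schisandra chinensis, at 1000 mg/kg per day by the labels. No array of mice without cyclophosphamide was analysed here. By the labels, the MOD spleens were taken on day 5 and the SA-H spleens on day 28, although their protocol has the model mice drink water over the same weeks. Where the day labels hold, the group cannot be told apart from the day. The methods of the study name a different dose and a shorter course of SA. Nothing in the labels says that the arrays of a group came from separate mice, and the p-values may therefore measure technical spread alone.

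Glutathione is a small thiol peptide that is made from glutamate, cysteine and glycine, used to reduce peroxides and to tag reactive compounds, and then regenerated with NADPH. The thioredoxin system and the peroxiredoxins form a parallel route for the removal of peroxides. Many of these genes carry antioxidant response elements, to which the transcription factor Nfe2l2 (Nrf2) binds once it is released from its sensor Keap1. The pathways bear on cyclophosphamide, because aldehyde dehydrogenases inactivate its intermediate aldophosphamide and glutathione transferases conjugate its reactive products. In the spleen, red cell precursors and macrophages are known for high levels of antioxidant enzymes.

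The core of the antioxidant response element, TGACNNNGC on either strand, was looked for in promoter windows that run from 250 bases before to 50 bases after the annotated start (RefSeq, GRCm38.p6). Windows were given for 37 of the 46 genes. The core was present in 12 of these 37 (32.4%) and in 14.0% of the 27025 genes of the whole table. The genes were listed partly because they belong to this response, and a match is a description and not a site of binding. At an unadjusted p under 0.05, 10 genes were lower after SA (given below), of which 9 had a window, and 4 of these held the core upstream of the start. Their stretches are shown since they belong to the genes that carry the main difference, 5′ to 3′ on the strand of the gene, with the core in capitals.
Gstm5 (chr3:107895797-107895835, plus strand, core beginning 42 bases before the start): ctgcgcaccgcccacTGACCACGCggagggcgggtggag
Mgst1 (chr6:138140456-138140494, plus strand, core on the opposite strand, beginning 56 bases before the start): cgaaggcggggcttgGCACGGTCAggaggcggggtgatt
Txnrd1 (chr10:82859099-82859137, plus strand, core on the opposite strand, beginning 92 bases before the start): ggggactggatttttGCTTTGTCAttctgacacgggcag
G6pdx (chrX:74428914-74428952, minus strand, core on the opposite strand, beginning 57 bases before the start): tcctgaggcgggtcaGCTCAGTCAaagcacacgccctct

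The core was also present in the windows of Nfe2l2, Gclm, Srxn1, Prdx1, Sod1, Pgd, Abcc4 and Aldh9a1, none of which passed an unadjusted p of 0.05. These are 8 of the 25 members with a window that did not pass (32%), close to the share of all members. Of the 4 genes that were higher in the SA-H group, 3 had a window and the core was in 0 of them. With 9 windows of lower genes and 3 of higher genes, a link of the core to the direction cannot be read and was not tested. No entry was found for Gsr, Gclc, Prdx6, Sod3, Gsta4, Gstt2, Aldh2, Aldh3a1 and Abcc1.

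The members leaned towards lower levels in the SA-H group. With limma, 10 of the 45 tested genes (22.2%) were lower and 4 (8.89%) higher past an unadjusted p of 0.05. Among all tested genes 12.5% were lower and 10.8% were higher. The counts by role given below stand beside these same shares, and each role holds few genes. The median log2 fold change, SA-H minus MOD, was -0.28 over the members and -0.04 over all tested genes. Of the members 32 were below 0 and 13 above, and of all 14474 tested genes 7570 were below 0 and 6904 above. Every SA-H array lay below every MOD array for 15 members (33.3%, against 20.7% of all tested genes) and above for 3 (6.67%, against 11.9%). The 15 include Gss, whose probe was kept only through the MOD group. A fold change of at least 2 together with an unadjusted p under 0.05 was reached by 4 members, namely Prdx3 and Mgst3 (lower) and Cat and Ephx1 (higher). Both of the higher genes rest on their brightest probe, since the second probe gave -1.50 for Cat and -0.50 for Ephx1, and with the mean of the probes or with the second probe 2 members in place of 4 were higher at that p. The 4 members past both limits are 8.89% of the members, below the 12.8% of all tested genes. No member passed an adjusted p of 0.05, and neither did any other gene (0.0% of all genes). The smallest adjusted p of a member was 0.0762, so that every difference below is a ranking by unadjusted p and not a set of genes past a correction. The count of lower members depended on single arrays, being 5 without MOD array 1 and 6 without MOD array 2. Those counts were 11.1% and 13.3% of the members. Among all tested genes the share that was lower fell too, from 12.5% to 5.69% and 9.11%. The count of higher members was 1 without MOD array 1, MOD array 2, SA-H array 4 or SA-H array 6.

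**Figure D1:**
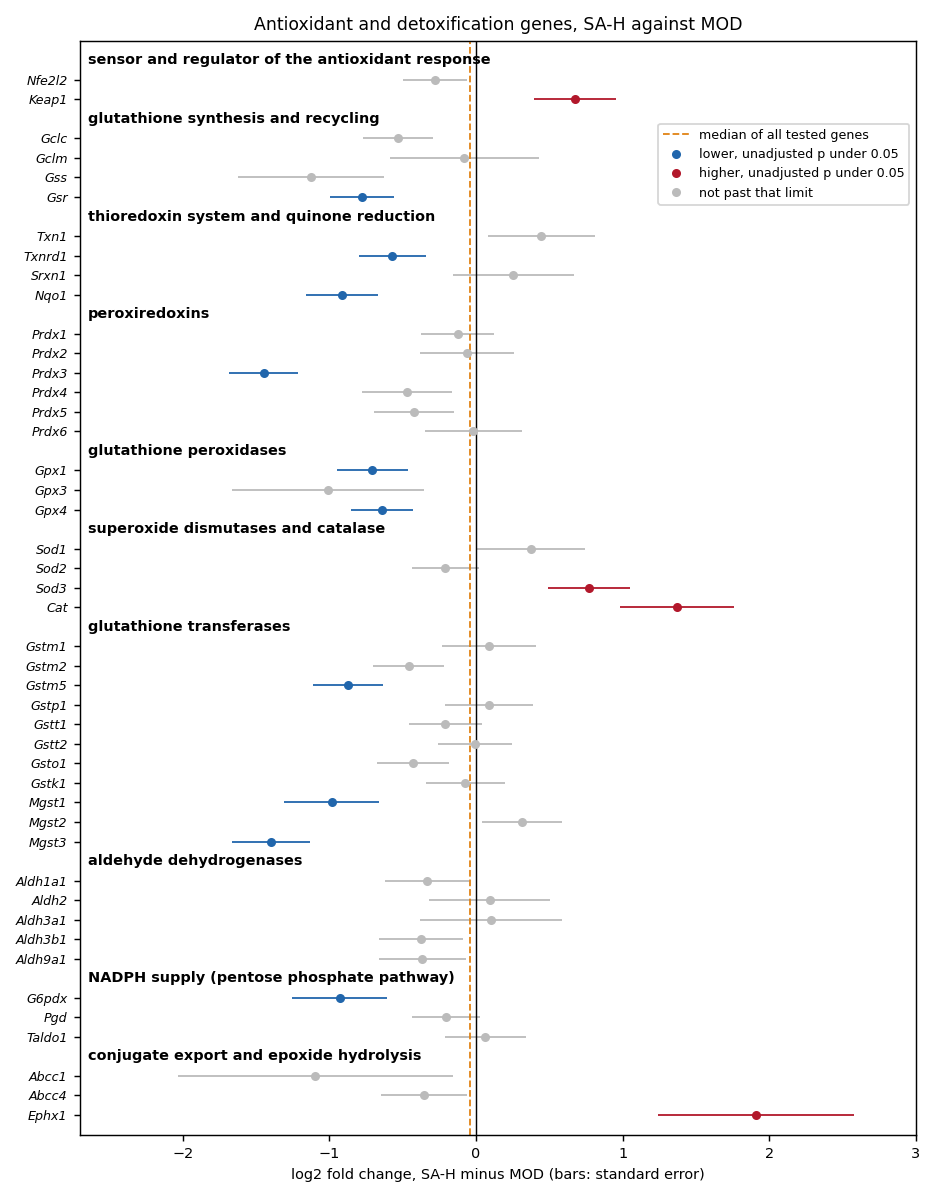
Log2 fold change (SA-H minus MOD, horizontal axis) of the 45 tested genes, grouped by role, with bars for the standard error. The 10 blue genes lie left of 0 and the 4 red genes right of it, and the dashed line marks the median of all tested genes at -0.04.

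All 45 values are log2 levels relative to the 75th percentile of their array, so a level compares arrays for 1 probe and not probes with each other. The arrays differed in quality. That percentile was 220 units of intensity on SA-H array 4 and 433 to 868 on the others, and 43.1% to 49.4% of spots were well above background on 4 arrays but 72.2% and 73.9% on MOD array 2 and SA-H array 5. SA-H array 4 lay farthest from the mean of the 6 arrays for 23 of the 45 members (51.1%) and for 47.8% of all genes. Markers of several cell types were counted at an unadjusted p under 0.05. At that limit 12.5% of all tested genes were lower and 10.8% higher. Of the 23 tested erythroid markers of 25 listed (Hbb-b1 and Sptb not tested), 8 were lower (34.8%) and 0 higher past that limit (median -0.52). Their summed level ran from 849 to 965 on the MOD arrays and from 623 to 1520 on the SA-H arrays, where 1 is the 75th percentile of an array. Of the 12 tested red pulp macrophage markers of 16 listed, 2 were lower (16.7%) and 1 higher (8.33%), near the shares of all genes. Their sums were 118 to 149 on the MOD arrays and 83.4 to 144 on the SA-H arrays (Cd163, Cd68, Siglec1 and Treml4 not tested). Of the 7 tested fat markers of 9 listed (Plin1 and Lep were not tested), 6 were lower (85.7%). The sums of the fat markers were 11.6 to 16.4 in the MOD group and 5.83 to 7.52 in the SA-H group. Of the lymphocyte markers that define the spleen, all 10 of T cells and 9 of 10 of B cells were tested. Of these, 0 and 1 passed an unadjusted p of 0.05, that of B cells being higher (11.1%). Of the 10 tested neutrophil markers of 12 listed, 1 was lower and 1 higher (10% each). Of 10 pancreas markers 2 were tested, of which Ins2 passed and was higher (2.59) and Cela1 did not pass (-0.84). The extraction protocol also speaks of liver, and of 12 markers of liver 4 were tested, while Alb, Apoa1 and Ttr were too dim. Of these 4, Serpina1a was lower (-0.65, unadjusted p = 0.0212), Tat was higher (1.93, unadjusted p = 0.0194), and Apoa2 and Cyp2e1 gave 0.55 and 0.49 and did not pass. The summed level of 24 ribosomal protein genes was 1515 to 1757 on the MOD arrays, 1750 and 2176 on SA-H arrays 5 and 6 and 3567 on SA-H array 4. The part of these cells in the differences of the members was not tested, and fewer cells of a type cannot be told apart from less RNA per cell.

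Nfe2l2 and Keap1 are the regulator and the sensor of the response. Keap1, the adaptor that hands Nfe2l2 to degradation, had levels of 1.20, 0.61 and 1.24 on MOD arrays 1, 2 and 3 and of 1.80, 1.39 and 1.88 on SA-H arrays 4, 5 and 6. All SA-H arrays were above all MOD arrays, as they were for 11.9% of all genes. The log2 fold change was 0.68 (SE 0.28, unadjusted p = 0.0452, adjusted p = 0.205), and p was over 0.05 without any of MOD arrays 1 and 2 and SA-H arrays 4 and 6 (0.0695, 0.171, 0.0760 and 0.138). The Nfe2l2 transcript itself was at 3.68 to 3.80 in the MOD group and 3.33 to 3.62 in the SA-H group. These ranges did not overlap, but the difference of -0.28 did not pass (SE 0.22, unadjusted p = 0.237).

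Of the glutathione synthesis and recycling genes, 1 of 4 passed, and all 4 estimates were below 0. Of all 14474 tested genes, 12.5% were lower at an unadjusted p under 0.05 and 7570 had an estimate below 0. Gsr, the reductase that regenerates glutathione with NADPH, was at 2.22, 2.26 and 2.34 on the MOD arrays and at 1.50, 1.35 and 1.64 on the SA-H arrays. The groups stood apart by far more than their own spread, and Gsr was 1.71-fold lower (log2 fold change -0.78, SE 0.22, unadjusted p = 0.00871, adjusted p = 0.114). A second kept probe of Gsr gave -1.07. Gclc, the catalytic subunit of the rate-limiting ligase of glutathione synthesis, was at 3.25 to 3.42 in the MOD group and 2.54, 2.81 and, on SA-H array 4, 3.08 in the SA-H group. The ranges of Gclc did not overlap. Its difference of -0.53 did not reach the limit (SE 0.24, unadjusted p = 0.0598). Without SA-H array 4 the difference of Gclc was -0.67 and p was 0.0163.

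Gss, which adds glycine in the last step of glutathione synthesis, was at -1.65, -1.90 and -2.02 on the MOD arrays and at -4.18, -2.37 and -2.40 on the SA-H arrays. Every SA-H array was below every MOD array, but the signal of Gss on SA-H array 4, which was not well above background, set most of the difference of -1.13 (SE 0.50, unadjusted p = 0.0575). Without that array the difference was -0.53 and p was 0.0456. The probe of Gss was kept only through the MOD group, where it was higher. Gclm, the modifier subunit of the same ligase as Gclc, gave -0.08 (SE 0.51), with MOD array 3 at 0.45 against 2.14 and 2.24 on the other MOD arrays.

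Of the thioredoxin and quinone reduction genes, Txnrd1 and Nqo1 were lower, and Txn1 and Srxn1 did not pass. Txnrd1, the cytosolic thioredoxin reductase, was at 2.36, 2.05 and 2.34 in the MOD group and at 1.64, 1.54 and 1.85 in the SA-H group. The groups of Txnrd1 did not overlap, and the log2 fold change was -0.57 (SE 0.23, unadjusted p = 0.0416, adjusted p = 0.199). This call was the least steady of the lower genes: p was over 0.05 without MOD array 1, 2 or 3 or without SA-H array 5 or 6, and it was 0.120 with the scan day as a block. Nqo1, a quinone reductase and a classical target of Nfe2l2, was at -1.07, -1.32 and -1.35 on the MOD arrays and at -2.46, -2.04 and -1.97 on the SA-H arrays. Here too the groups were apart (log2 fold change -0.91, SE 0.25, unadjusted p = 0.00719, adjusted p = 0.108), and leaving out any 1 array did not end the call. Thioredoxin itself (Txn1) gave 0.45 (SE 0.37) and sulfiredoxin (Srxn1), which repairs overoxidized peroxiredoxins, gave 0.25 (SE 0.41). In both, SA-H array 4 was the highest of the 6 arrays, at 6.99 for Txn1 and 4.21 for Srxn1, and the other 5 arrays overlapped.

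Among the 6 peroxiredoxins, which reduce peroxides with electrons from thioredoxin or glutathione, Prdx3 alone passed. Prdx3, the mitochondrial peroxiredoxin, was at 3.14, 2.89 and 2.86 in the MOD group and at 1.62, 1.27 and 1.65 in the SA-H group. The gap between the lowest MOD array and the highest SA-H array was larger than the range within either group. Prdx3 was 2.73-fold lower, with the smallest p of all the members (log2 fold change -1.45, SE 0.23, unadjusted p = 0.000406, adjusted p = 0.0762). It stayed lower by 1.27 to 1.35 within each scan day that held both groups. The cytosolic Prdx1 and Prdx2 gave -0.12 (SE 0.25) and -0.06 (SE 0.32), the endoplasmic reticulum enzyme Prdx4 gave -0.47 (SE 0.31) and Prdx5 gave -0.42 (SE 0.27), all with overlapping groups. Prdx6 gave -0.02 on its brightest probe, but its other kept probes gave -0.62 (unadjusted p = 0.0321) and -1.14 (unadjusted p = 0.0123), with every SA-H array below every MOD array on both. No direction is therefore given for Prdx6. Of the 23 erythroid markers, 8 were lower (34.8%, against 12.5% of all tested genes) and 15 did not pass, among them Hba-a1 (0.71). The part of erythroid cells in the difference of Prdx3 was not tested. Prdx2, which is abundant in red cells, was at 4.91 to 5.45 on the MOD arrays and 4.70 to 5.69 on the SA-H arrays.

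**Figure D2:**
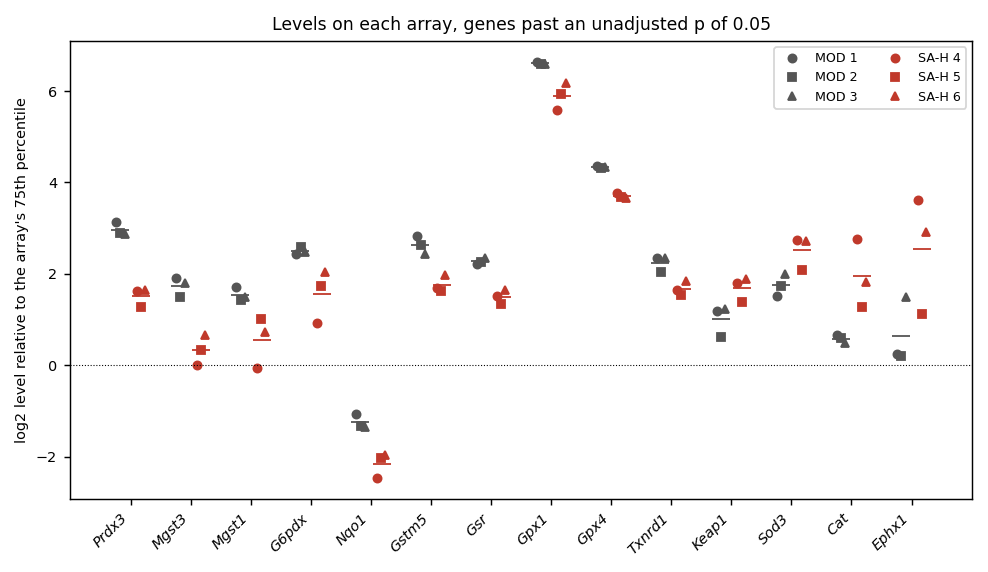
Levels on each array (vertical axis, log2 relative to the 75th percentile of that array) of the 14 genes past an unadjusted p of 0.05, ordered by fold change, with grey for MOD, red for SA-H and short lines for group means. The groups are apart for 13 of the 14 genes and overlap for Ephx1. The genes were chosen by p on these same values, which favours groups that stand apart, so the separation is a description.

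Of the 3 glutathione peroxidases among the members, the intracellular Gpx1 and Gpx4 were lower. Gpx8, which is not a member, gave -0.08 with overlapping groups (SE 0.29, unadjusted p = 0.799). Gpx1, the major enzyme that reduces hydrogen peroxide with glutathione, was at 6.65, 6.58 and 6.59 on the MOD arrays and at 5.60, 5.94 and 6.17 on the SA-H arrays. Gpx4, which reduces lipid peroxides in membranes, was at 4.37, 4.31 and 4.34 and at 3.77, 3.68 and 3.65. The MOD arrays lay within 0.1 of each other for both genes, and all SA-H arrays were below them. Gpx1 gave a log2 fold change of -0.71 (SE 0.24, unadjusted p = 0.0212, adjusted p = 0.155). Gpx4 gave -0.64 (SE 0.21, unadjusted p = 0.0174, adjusted p = 0.145). Both p-values were over 0.05 without MOD array 1 (0.0710 and 0.0661) or MOD array 2 (0.0578 and 0.0540), and that of Gpx4 also without SA-H array 6 (0.0640). Gpx3, the secreted plasma enzyme, was at -1.45, -2.0 and -2.01 in the MOD group and -4.45, -2.07 and -1.96 in the SA-H group. The groups of Gpx3 overlapped, and its estimate of -1.01 (SE 0.65) came down to -0.20 without SA-H array 4, where the probe was not well above background.

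Of the superoxide dismutases and catalase, Sod3 and, on its brightest probe, Cat were higher. Sod3, the extracellular dismutase, was at 1.51, 1.73 and 2.0 on the MOD arrays and at 2.74, 2.09 and 2.72 on the SA-H arrays. The groups were apart, though SA-H array 5 lay close to MOD array 3, and the log2 fold change was 0.77 (SE 0.28, unadjusted p = 0.0280, adjusted p = 0.172). Without MOD array 1 or 2 or SA-H array 4 or 6 the p of Sod3 was 0.0564 to 0.106. The cytosolic Sod1 gave 0.38 (SE 0.37) and the mitochondrial Sod2 gave -0.21 (SE 0.23), each with overlapping groups.

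Cat, the peroxisomal enzyme that splits hydrogen peroxide, was at 0.66, 0.60 and 0.49 on the MOD arrays and at 2.77, 1.27 and 1.83 on the SA-H arrays on its brightest probe. The SA-H arrays were all above the MOD arrays but were spread more widely, and the log2 fold change was 1.37 (SE 0.39, unadjusted p = 0.00908, adjusted p = 0.115). The second kept probe of Cat moved the opposite way, with -1.61, -1.99 and -0.99 in the MOD group and -4.18, -2.52 and -2.40 in the SA-H group. That difference was -1.50 (SE 0.52, unadjusted p = 0.0228), and SA-H array 4 was not well above background on that probe. Catalase therefore has no settled direction in these data.

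**Figure D3:**
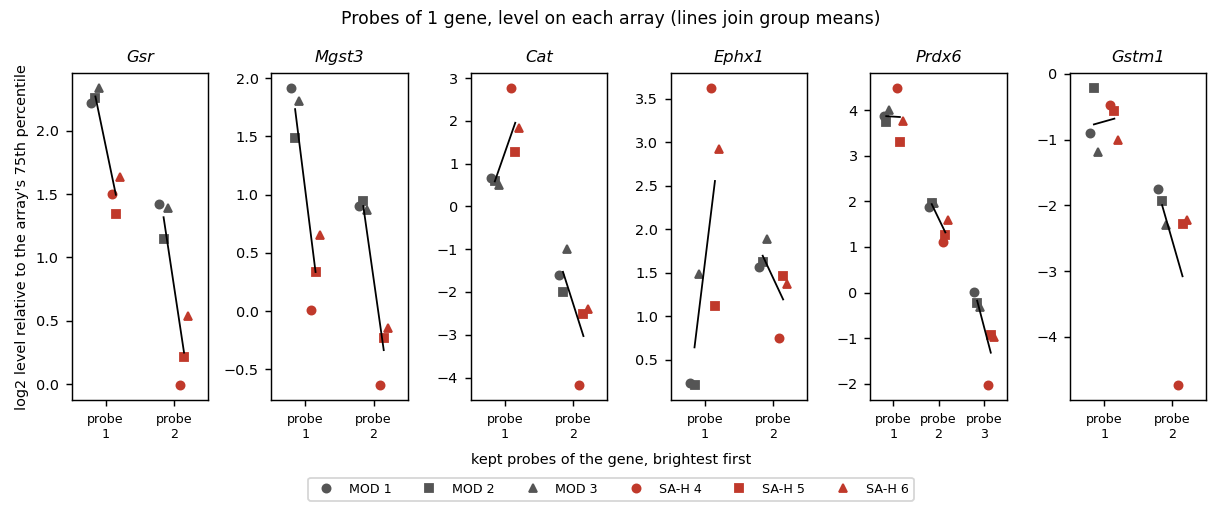
Level on each array (vertical axis, log2 relative to the 75th percentile of that array, own scale per gene) for every kept probe of 6 genes, with lines that join the MOD mean to the SA-H mean. The lines run the same way for Gsr and Mgst3, and probes of Cat, Ephx1 and Gstm1 run opposite ways, while Prdx6 is flat on 1 probe and lower on the other 2.

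The glutathione transferases couple glutathione to reactive compounds. Of the 11 tested, 3 were lower (27.3%, against 12.5% of all tested genes) and 0 higher (against 10.8%). The median of the 11 was -0.21, against -0.04 over all tested genes. Mgst3, a microsomal family member that also acts as a peroxidase, was at 1.91, 1.48 and 1.80 in the MOD group and at 0.01, 0.34 and 0.65 in the SA-H group. The groups of Mgst3 were well apart, and it was 2.64-fold lower (log2 fold change -1.40, SE 0.27, unadjusted p = 0.00110, adjusted p = 0.0809). Its second probe gave -1.24 (unadjusted p = 0.00112). Mgst1, the microsomal transferase of the endoplasmic reticulum and mitochondria, was at 1.71, 1.43 and 1.49 on the MOD arrays and at -0.06, 1.01 and 0.72 on the SA-H arrays. SA-H array 4 was the lowest, and the other SA-H arrays were also below the MOD arrays. Mgst1 gave -0.99 on both probes, with unadjusted p = 0.0179 and 0.0747, and p was 0.0641 without MOD array 1. Gstm5, a mu class transferase, was at 2.83, 2.62 and 2.44 in the MOD group and at 1.68, 1.62 and 1.98 in the SA-H group. The groups were again apart, with a log2 fold change of -0.87 (SE 0.24, unadjusted p = 0.00768, adjusted p = 0.111).

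The other transferases did not pass. Gstm2 and the omega class Gsto1 had every SA-H array below every MOD array but gave only -0.46 (SE 0.24, unadjusted p = 0.0988) and -0.43 (SE 0.24, unadjusted p = 0.121). Gstp1, the pi class enzyme, gave 0.09 (SE 0.30) and 0.11 on its second probe. Gstt1, Gstt2, Gstk1 and Mgst2 lay between -0.21 and 0.31 with overlapping groups. Gstm1 gave 0.09 (SE 0.32) on its brightest probe and -1.08 (SE 0.66) on another, which was too dim on SA-H array 4. Since mu class transferases are close in sequence and no probe sequence was analysed here, probes that read more than 1 of them could not be told apart from specific ones.

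None of the 5 tested aldehyde dehydrogenases passed. Aldh1a1, a cytosolic enzyme that oxidizes retinal and aldophosphamide, was at 4.15, 3.76 and 3.85 on the MOD arrays and at 3.97, 3.13 and 3.65 on the SA-H arrays. Its groups overlapped (log2 fold change -0.34, SE 0.29, unadjusted p = 0.280). Aldh2, the mitochondrial enzyme of acetaldehyde, gave 0.09 (SE 0.41), and Aldh3a1, which also oxidizes aldophosphamide, gave 0.10 (SE 0.49). MOD array 2 and SA-H array 4, scanned on the same day, were the highest for Aldh3a1 at 0.71 and 0.84, against -0.61 to -0.37 on the others. Aldh3b1 and Aldh9a1 gave -0.38 (SE 0.29) and -0.37 (SE 0.30). The standard errors were 0.29 to 0.49 over the 5 genes. They leave room for changes larger than the errors themselves in either direction, so no absence of change is shown.

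Of the pentose phosphate genes, which supply NADPH to the reductases, G6pdx was lower. G6pdx, the first and rate-limiting enzyme of the pathway, was at 2.43, 2.59 and 2.47 in the MOD group and at 0.93, 1.73 and 2.04 in the SA-H group. The groups did not overlap, but SA-H array 4 stood below the other SA-H arrays, and the log2 fold change of -0.93 (SE 0.32, unadjusted p = 0.0229, adjusted p = 0.160) came down to -0.61 without it. Without MOD array 1, 2 or 3 the p of G6pdx was 0.0541, 0.0630 and 0.0522. Pgd, the next dehydrogenase of the pathway, gave -0.20 (SE 0.23), and Taldo1, of its non-oxidative branch, gave 0.06 (SE 0.27).

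Ephx1, the microsomal epoxide hydrolase, had on its brightest probe the largest estimate of all the members and the widest spread among those past the limit. It was at 0.24, 0.21 and 1.48 on the MOD arrays and at 3.62, 1.12 and 2.92 on the SA-H arrays. MOD array 3 was above SA-H array 5, so the groups overlapped, and the log2 fold change was 1.91 (SE 0.67, unadjusted p = 0.0239, adjusted p = 0.163). The p of Ephx1 was over 0.05 without MOD array 1 or 2 or SA-H array 4 or 6 (0.0626 to 0.0733). Its second probe was at 1.37 to 1.46 and, on SA-H array 4, 0.75 in the SA-H group, below all MOD arrays, with a difference of -0.50 (unadjusted p = 0.111). The second probe had the higher mean in the MOD group (1.69 against 0.64) and the lower mean in the SA-H group (1.19 against 2.55). The choice of the brightest probe over all arrays thus drew on the SA-H values. As for Cat, the direction of Ephx1 rests on the probe. Of the exporters of glutathione conjugates, Abcc1 (Mrp1) was at -1.25, -1.02 and -0.39 in the MOD group and at -4.38, -0.78 and -0.79 in the SA-H group. SA-H array 4, where the probe was not well above background, made the whole of its estimate of -1.10 (SE 0.94), which was 0.10 without that array. Abcc4 (Mrp4) gave -0.35 (SE 0.29).

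Array by array, the 10 lower genes had a median level, relative to the mean of each gene over the 6 arrays, of 0.52, 0.38 and 0.41 in the MOD group and -0.64, -0.38 and -0.26 in the SA-H group. The 4 higher genes had -0.62, -0.70 and -0.13 in the MOD group and 1.06, -0.02 and 0.57 in the SA-H group. Each SA-H array was thus low for the lower genes, whereas SA-H array 5 lay near the mean for the higher genes. Both sets were formed from these same values, so their medians are a description.

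The scan day was the batch that the headers give. The first day held MOD arrays 1 and 3 and SA-H array 6, the second held MOD array 2 and SA-H array 4, and the third held SA-H array 5 by itself. Within the first day the median log2 fold change of the 10 lower genes was -0.68, and within the second it was -1.07. The 4 higher genes gave 1.11 and 1.68, and each of the 14 genes kept its sign on both days. These genes were chosen on the same arrays, and of all 14474 tested genes 12856 kept their sign on the first day and 11920 on the second, so the signs are a description. When scan day was entered as a block, SA-H array 5 carried no weight, and 4 members passed an adjusted p of 0.05, namely Prdx3 (0.0356), Mgst3 (0.0349), Cat (0.0308) and Ephx1 (0.0271), among 1075 of all tested genes. Arrays with the same scan time were taken as 1 slide, which put MOD arrays 1 and 3 together and MOD array 2 with SA-H array 4. SA-H arrays 5 and 6 each stood alone. When this inferred slide was a random block instead, the adjusted p was 0.0588 for Prdx3 and Mgst3, 0.0744 for Cat and 0.106 for Ephx1. In that fit 0 of all tested genes passed (limma, smallest adjusted p 0.0525, with 3886 genes at an unadjusted p under 0.05).

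**Figure D4:**
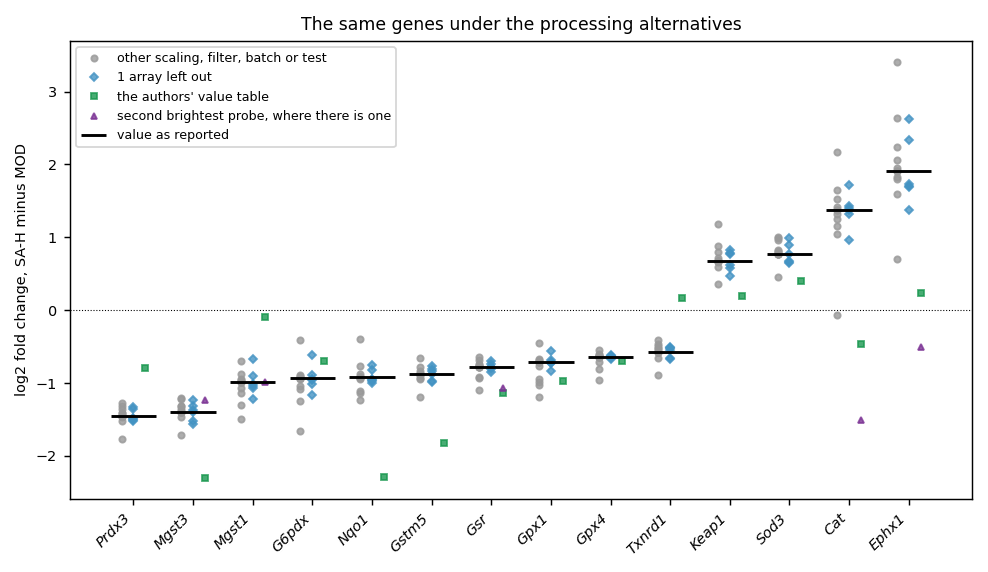
Log2 fold change (SA-H minus MOD, vertical axis) of the 14 genes as reported (black lines) and under the alternatives in processing, each point being 1 alternative. Gsr, Prdx3, Gstm5 and Mgst3 stay below 0 and past an unadjusted p of 0.05 wherever a p was computed, while Cat, Ephx1 and Txnrd1 cross 0 under at least 1 alternative.

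A further 92 genes of the same pathways were listed, and 68 of them were tested. Of these, 8 were lower (11.8%) and 1 was higher (1.47%) at an unadjusted p under 0.05, against 12.5% and 10.8% of all tested genes, and the median log2 fold change was -0.12. Fold changes of at least 2 at that p were reached by 6 genes, 8.82% of them, below the 12.8% of all tested genes. The only one that was higher was Aldh1a7, a close paralog of Aldh1a1, at -2.42, -2.40 and -3.13 in the MOD group and -0.31, -0.20 and 0.03 in the SA-H group. The groups of Aldh1a7 were far apart (log2 fold change 2.49, SE 0.28, unadjusted p = 4.23e-05, adjusted p = 0.0762), the probe being well above background on 2 of the 3 MOD arrays. Aldh1a7 was therefore kept only through the SA-H group, where it was higher. Aldh1a1 gave -0.34, as above, so that the paralogs differed in sign, and whether their probes read each other was not tested.

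The other 5 were lower. Of these, Aldh1a3, Aldh3b2 and Aldh18a1 were kept only through the MOD group, where they were higher. Chac2, which degrades glutathione in the cytosol, was at 3.80, 3.71 and 3.58 in the MOD group and at 2.80, 2.29 and 2.64 in the SA-H group. Its groups were apart, with a difference of -1.12 (SE 0.24, unadjusted p = 0.00212, adjusted p = 0.0884). Glrx, the glutaredoxin that removes glutathione from proteins, gave -1.27 (SE 0.44, unadjusted p = 0.0234), with SA-H array 4 the lowest at -1.71 against -0.19 and -0.09. Aldh1a3, a retinal dehydrogenase, gave -1.18 (SE 0.30, unadjusted p = 0.00561), with SA-H array 4 too dim to stand well above background. Aldh3b2 gave -1.90 (SE 0.29, unadjusted p = 0.000293), but the probe of Aldh3b2 was well above background on only 1 SA-H array. Aldh18a1, an enzyme of proline synthesis, gave -1.15 (SE 0.48, unadjusted p = 0.0487), with SA-H array 4 again too dim, at -4.79 against -3.11 and -2.97 on SA-H arrays 5 and 6. Smaller differences past that p were those of Mafk (-0.60), a partner of Nfe2l2 on DNA, Rpe (-0.73), an epimerase of the pentose phosphate pathway, and Abcc3 (-0.76), an exporter of conjugates. Hmox1, a heme-degrading target of Nfe2l2 that red pulp macrophages express, gave -0.54 and did not pass.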

How the data were processed

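Spleen RNA was measured on 6 arrays. The authors ran Agilent Feature Extraction 11.0.1.1 to obtain the deposited intensity values, from which the background is subtracted per the file headers and which are not normalized between arrays. The deposited flags for spots well above background and for outliers were read as given. The deposited value table holds log2 values of the authors. Its columns share 1 median (5.343), how it was made is not given in the sources used here, and over 14351 probes only 3 of its 6 columns follow their own scanner array best (r of -0.261 to 0.473), so it served as an alternative.

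The processed signal was put on the log2 scale and centred on the 75th percentile of the array's 43020 spots that are not controls. Outlier spots were left out and spots of a probe averaged. A probe was kept where either group had all 3 arrays well above background, and the brightest kept probe stood for its gene. Gene symbols came from RefSeq (GRCm38.p6) by accession. The SA-H group was set against the MOD group in limma 3.58.1 (R 4.3.3), two-sided, and p-values were adjusted by Benjamini-Hochberg over the 14474 genes and targets tested. The script was tested on simulated data. Promoter windows came from RefSeq. Python 3.11.15 with pandas 2.3.3, numpy 2.4.6 and matplotlib 3.10.9 served for the rest.

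The members, the roles and the other lists were chosen with earlier results of these data known. Every member is named. Of the other pathway genes, those past 2-fold with an unadjusted p under 0.05 are named, and others by smallest p. Hmox1 and Gpx8 were named after their values were seen. Alternatives covered scaling, background correction (normexp with an offset of 50, on the median spot signal, since no mean signal was used here), probe filter, probe choice, scan day and slide, the value table, the methods' analysis of variance and leaving out each array. The number of arrays limits the precision.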

Additional observations from a re-analysis of the deposited data

How the results depend on the processing

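The lower calls of Gsr, Prdx3, Gstm5 and Mgst3 kept their direction under all 20 alternatives and their side of an unadjusted p of 0.05 under all that gave a p, and Nqo1 missed it under 1, normexp (-0.40). Over the 10 lower genes and 20 alternatives each (200 values), 174 kept direction and call, 25 lost the call and 1 reversed. Over the 4 higher genes 55 of 80 values kept both, 21 lost the call and 4 reversed. Cat turned to -0.0656 with the mean of its probes and to -1.501 with the second brightest probe (an alternative chosen after seeing the data), which turned Ephx1 to -0.502. With the authors' value table Txnrd1 was 0.163, Cat -0.4662, Gstm1 -0.9127, Gstm2 0.4295, Gstk1 0.4128, Mgst2 -0.7775 and Abcc1 0.4784. The cause was not tested.

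As reported, 1849 of all genes and 4 members reached a fold change of 2 with an unadjusted p under 0.05, 10 members were lower and 4 higher, and 6 other pathway genes were called. Scaling by each array's median moved the median of all genes by -0.32 and gave 3158 of all genes, 13 members, 11 other pathway genes, 2 higher members and medians of -0.6022 (members) and -0.444 (others). Since median scaling shifts the fold change of every gene by the same amount, the members' median relative to all genes was -0.24 under both scalings by construction. Quantile normalization gave 7 members and a median of -0.2551 for the others, the slide as a random block 7 members, and the mean of probes 2 members. Normexp gave 3 other pathway genes and the filter on all 6 arrays 2. Higher members numbered 2 without a filter (which moved the median of all genes by 0.18), with the mean of probes, with the second brightest probe and with the methods' analysis of variance, which gave 1135 of all genes. The value table gave 10 members called and 19 lower. The share of called genes that were higher was 60.6% as reported, 31.6% with median scaling, 49.8% with quantile normalization, 69.2% with normexp, and 23.3% in the value table. Members past an adjusted p of 0.05 numbered 0 as reported, 4 with the scan day as a block, 0 with the slide as a random block, 3 with median scaling (Ephx1, Mgst3 and Prdx3), 2 with normexp (Mgst3 and Prdx3) and 14 in the value table. Of all 14474 genes and targets tested, 0, 1075, 0, 1094, 211 and 1779 passed in those same settings, in that order.

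Leaving out 1 array gave 1228 to 2466 called genes, 2 to 7 called members, 1 to 4 higher and 5 to 12 lower members, 4 to 8 called other pathway genes, and medians of -0.3579 to -0.1478 (members) and -0.2576 to -0.07815 (others). The lowest count of called members was without SA-H array 4. Dim spots limit Gss, Gpx3, Abcc1 and the second probes of Cat and Gstm1, which were not well above background on that array. These probes were therefore kept only through the MOD group, where their mean was higher. No paired analysis was made, because the labels name no pairing between the arrays of the 2 groups. The arrays that share a scan day were compared within it and with the day as a block.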
